A study of Mus musculus with 12 samples.

Results

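The genes described here are 54 genes of the cell cycle and DNA replication, taken by symbol from the 23420 genes counted in B16-F10 tumors. By their textbook roles they comprised 19 replication genes, 27 mitotic genes and 8 regulators of entry into these phases. All 54 were found in the count table and all 54 passed the filter on low counts, as did 13095 genes in all. RNA was sequenced from 12 subcutaneous tumors of male C57BL/6J mice, 3 tumors in each of 4 groups. Obese mice had received a Western diet with added cholesterol for 15 weeks, until their weight had increased by 50%, and nonobese mice a matching control diet. The Western diet was started when the mice were a few weeks old. In each diet group, mice with palpable tumors received 10 mg/kg of an anti-PD-1 antibody (clone 29F.1A12) or of an isotype control antibody (clone 2A3), 3 times a week. All groups therefore carried the same tumor cell line, implanted in the flank, and all received an antibody. B16-F10 is a single established melanoma line, so the tumors differ in host and treatment and not in the origin of the cancer cells. The labels do not say whether the tumors of a group came from separate cages or cohorts, and P values measure the spread between these tumors only.

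Cells copy their DNA in S phase and separate the copies in mitosis. Before S phase, Cdc6 and Cdt1 load the Mcm2 to Mcm7 helicase onto replication origins, Cdc45 and the Gins proteins then activate it, and Pcna holds the polymerases on DNA. Mitosis is driven by Cdk1 with its B-type cyclins, by Plk1 and by the Aurora kinases, while motor proteins of the Kif family build the spindle and Cdc20 starts the destruction of the cyclins. E2F factors activate many replication genes around entry into S phase, and complexes containing Mybl2 and Foxm1 activate many mitotic genes later in the cycle. In tumor tissue the summed RNA of these genes is commonly read as a measure of proliferation, with Mki67, which encodes the Ki-67 antigen, as its best known member.

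Total counts per tumor ranged from 14022929 to 33871843, and the least counted of the 54 genes, Ccne2, still had 82 counts in its lowest tumor. The 8 melanoma marker genes averaged 10.99 to 11.24 log2 CPM (counts scaled to library size) in the 12 tumors. Other cells varied more: the mean of 6 fibroblast markers ranged from 3.17 to 6.34 and that of 6 skeletal muscle markers from 0.16 to 6.25 log2 CPM. The mean of 7 T and NK cell markers was -0.47 to 1.2 log2 CPM in obese anti-PD-1 tumors and -2.92 to -0.91 in the remaining tumors, so obese anti-PD-1 tumors did not overlap with any other group. The mean of 5 adipocyte markers was 1.26 to 2.81 log2 CPM in obese anti-PD-1 tumors, above obese isotype (-0.66 to 0.31) and nonobese anti-PD-1 tumors (-1.37 to 0.04) and overlapping with nonobese isotype tumors (0.05 to 1.39). That of 7 myeloid markers was 4.39 to 5.53 log2 CPM in obese anti-PD-1 and 3.46 to 4.3 in nonobese anti-PD-1 tumors, without overlap. Obese anti-PD-1 tumors overlapped with nonobese isotype (4.27 to 5.36) and obese isotype tumors (3.81 to 4.71). The part of these cells in the levels of cell cycle genes was not tested. In such bulk tissue, fewer dividing cells and less RNA per dividing cell cannot be told apart.

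The promoters of the 2 larger classes differ in sequence, which is shown first because it separates the genes without using any measurement. Promoter windows of 300 bases from RefSeq (GRCm38.p6), from 250 bases before to 50 bases after the start site, were given for 44 of the 54 genes. A set of 3 short motifs was searched on both strands. They were the CHR element (TTTGAA or TTCGAA), through which the Mybl2 and Foxm1 complexes reach mitotic promoters, the CCAAT box (CCAAT), and an E2F element (TTTCCCGC, TTTGGCGC, TTTGCCGC or TTTCGCGC). A CHR was found in 19 of 23 mitotic windows (82.6%), in 4 of 16 replication windows (25%) and in 19.5% of the windows of 27025 genes. An E2F element was found in 1 of 23 mitotic windows (4.35%), in 8 of 16 replication windows (50%) and in 2.33% of all windows. The CCAAT box did not divide the classes, with 82.6% of mitotic, 81.2% of replication and 38% of all windows. Among the 5 regulators with a window, 1 had a CHR, 1 a CCAAT box and none an E2F element, and no match says only that these letters are not in the window. In 1 gene, matches of different motifs overlapped, and in 3 genes matches of the same motif did.

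The following 160 bases end at the base before the start site, are written 5′ to 3′ on the strand of the gene, and have the motif letters on either strand in capitals. Mki67 (minus strand, chr7:135716380-135716539) is shown as the usual proliferation marker. Cdk1 (minus strand, chr10:69352913-69353072) is the mitotic kinase and, of the 23 mitotic genes with a window, the one with an E2F element. Kif11 (plus strand, chr19:37376222-37376381) and Ect2 (minus strand, chr3:27153879-27154038) are the mitotic genes that passed an unadjusted P of 0.05 between obese and nonobese mice under isotype, described further on.
Mki67: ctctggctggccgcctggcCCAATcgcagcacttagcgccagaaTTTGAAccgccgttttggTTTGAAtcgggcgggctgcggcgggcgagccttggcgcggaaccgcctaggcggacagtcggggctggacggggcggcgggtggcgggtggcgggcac
Cdk1: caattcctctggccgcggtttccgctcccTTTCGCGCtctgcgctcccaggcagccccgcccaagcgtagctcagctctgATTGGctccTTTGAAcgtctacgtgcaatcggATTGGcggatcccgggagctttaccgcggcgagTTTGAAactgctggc
Kif11: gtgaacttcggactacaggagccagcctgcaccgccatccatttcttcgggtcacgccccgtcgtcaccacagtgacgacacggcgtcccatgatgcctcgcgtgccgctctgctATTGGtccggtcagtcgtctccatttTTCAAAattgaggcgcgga
Ect2: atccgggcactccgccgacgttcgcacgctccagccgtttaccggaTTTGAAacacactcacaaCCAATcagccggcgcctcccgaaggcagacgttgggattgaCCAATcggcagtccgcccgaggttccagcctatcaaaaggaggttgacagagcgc
Each of these 4 windows holds both a CHR and a CCAAT box, which read TTCAAA and ATTGG where they lie on the other strand. The replication genes Mcm5 (plus strand, chr8:75109349-75109508) and Mcm6 (minus strand, chr1:128359706-128359865) are helicase subunits, and Pola1 (minus strand, chrX:93632156-93632315) encodes the catalytic subunit of DNA polymerase alpha.
Mcm5: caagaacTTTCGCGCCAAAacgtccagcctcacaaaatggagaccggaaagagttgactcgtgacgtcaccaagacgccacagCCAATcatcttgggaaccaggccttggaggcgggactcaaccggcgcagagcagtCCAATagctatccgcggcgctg
Mcm6: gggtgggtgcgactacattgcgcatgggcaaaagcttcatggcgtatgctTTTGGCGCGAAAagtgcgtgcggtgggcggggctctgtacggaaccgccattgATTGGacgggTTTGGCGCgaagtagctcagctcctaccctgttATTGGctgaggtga
Pola1: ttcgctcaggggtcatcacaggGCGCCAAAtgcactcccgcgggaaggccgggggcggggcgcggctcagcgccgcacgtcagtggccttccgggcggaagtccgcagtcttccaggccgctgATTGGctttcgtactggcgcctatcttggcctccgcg
Each of these 3 windows holds E2F letters and a CCAAT box but no CHR. Not all replication windows do: Pcna has a CCAAT box without E2F letters, and Cdt1 has E2F letters after the start site without a CCAAT box. A match is a description of the sequence and was not tested as a binding site.

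Per kilobase of exon, the 5 most abundant members were replication genes. Rrm2, a subunit of ribonucleotide reductase, had the highest mean level over the 12 tumors at 105.9 CPM per kilobase, followed by Mcm6 (81.4), Mcm3 (79.3), Pcna (76.5) and Mcm2 (70.3). The highest mitotic genes on this scale were Ccnb2 (52.7), Plk1 (52.4), Top2a (50.3) and Mki67 (48.1). The lowest members were Ccne2 (2.36), which encodes cyclin E2, Gins2 (4.0) and the spindle checkpoint kinase Ttk (4.19). Cyclin E1 (Ccne1, 18.0 CPM per kilobase) therefore exceeded cyclin E2 in length-scaled level. For Rrm2 the 12 tumors ranged over 1.56-fold and for Ccne2 over 2.09-fold, while neighbours in this order, such as Mcm6 and Mcm3, overlapped between tumors. Gene lengths are the union of exons in GENCODE vM21, so a gene whose tumors mainly use a short transcript has a higher level per base than given.

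**Figure D1:**
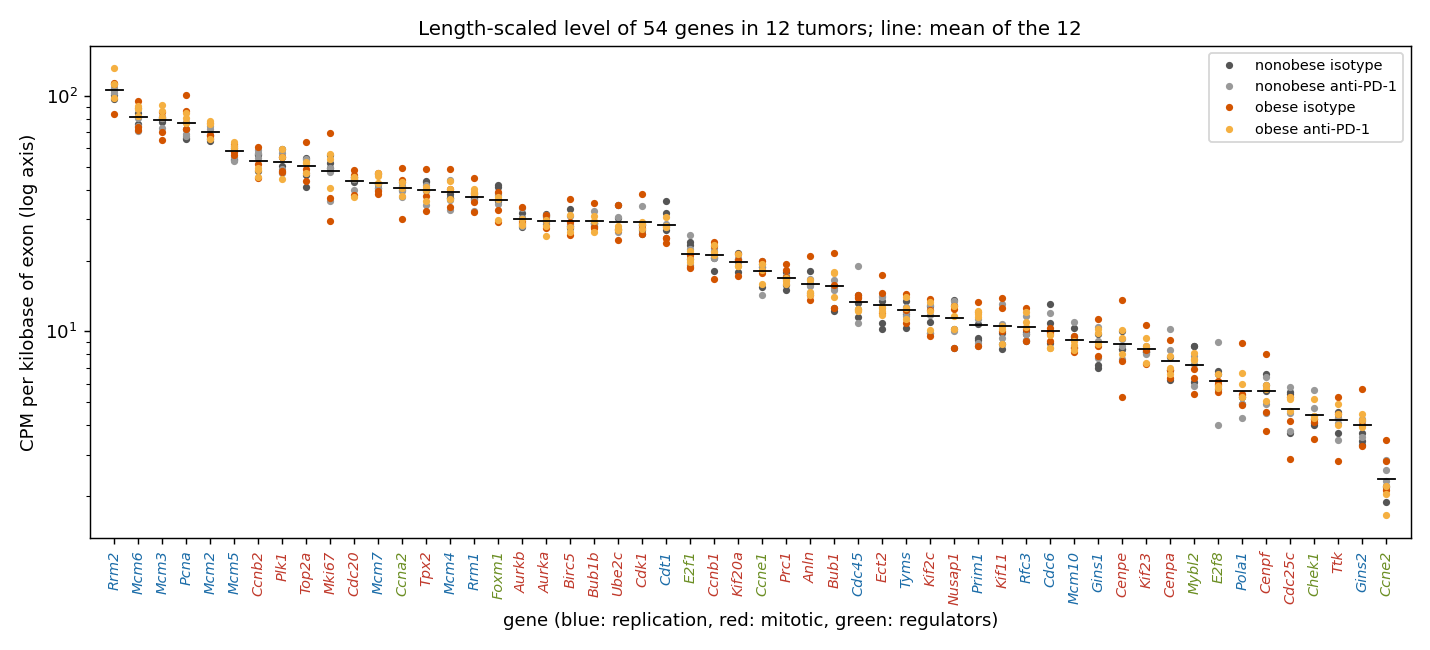
Level of each of the 54 genes in CPM per kilobase of exon (log axis), with 1 point per tumor colored by group and a line at the mean of the 12 tumors. Levels run from 105.9 for Rrm2 to 2.36 for Ccne2.

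The 4 groups had nearly the same level of these genes. On the log2 scale, the mean of the 27 mitotic genes was 6.44 ± 0.11 in nonobese isotype, 6.47 ± 0.017 in nonobese anti-PD-1, 6.46 ± 0.25 in obese isotype and 6.45 ± 0.071 in obese anti-PD-1 tumors (log2 CPM, SD, n = 3 each). The mean of the 19 replication genes was 6.62 ± 0.074, 6.64 ± 0.11, 6.68 ± 0.14 and 6.72 ± 0.036 in the same order. The 8 regulators averaged 5.55 ± 0.10, 5.56 ± 0.17, 5.48 ± 0.046 and 5.5 ± 0.033. For each class, the groups overlapped and the largest difference between group means was smaller than the SD of at least 1 group. As geometric means, the mitotic genes ranged from 72.9 CPM in obese isotype tumor 1 to 101.9 CPM in obese isotype tumor 3, so both extremes came from the same group. The replication genes ranged from 92.0 to 110.4 CPM in the same 2 tumors.

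**Figure D2:**
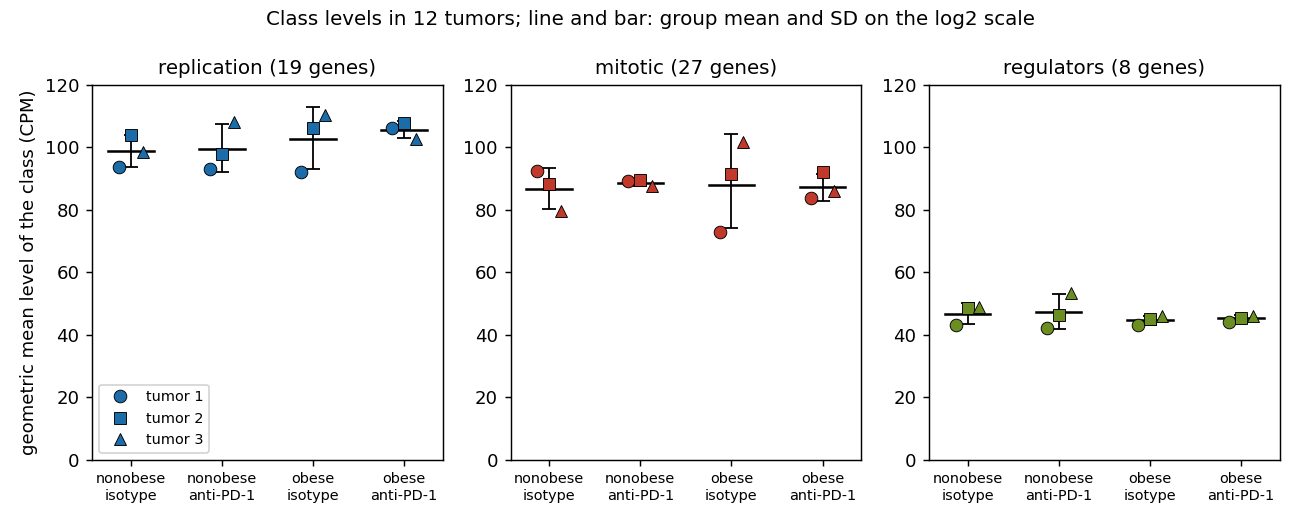
Geometric mean level (CPM) of the replication, mitotic and regulator genes in each tumor, by group, with the group mean and SD taken on the log2 scale. The mitotic genes span 72.9 to 101.9 CPM within the obese isotype group, which is wider than any difference between groups.

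In edgeR, no member passed the thresholds across all genes in any comparison. With edgeR's quasi-likelihood F-test, 0 of the 54 genes had a Benjamini-Hochberg FDR below 0.05 in the 4 pairwise comparisons, in the difference between the responses and in the averages over diet or treatment. Among all genes, 0% had such an FDR in these comparisons except obesity under anti-PD-1 (0.382%) and obesity averaged over treatments (0.183%). None of the 54 passed the thresholds of the study either, which are a change of more than 2-fold and a P below 0.05 without adjustment. Of all genes, 2.42% and 2.44% passed them for anti-PD-1 in nonobese and obese mice, 1.37% and 4.25% for obesity under isotype and anti-PD-1, 5.76% for the difference between the responses, and 0.512% and 0.305% for the averages over treatments and diets. DESeq2's Wald test gave 1 gene in 1 comparison, Cdt1 between obese and nonobese isotype tumors (FDR 0.0456), where it called 1.53% of all genes. An unadjusted P below 0.05 from edgeR was reached by 6 of the 54 genes in at least 1 pairwise comparison, beside 24.4% of all genes. For 1 gene with 3 tumors against 3, the lowest two-sided P that an exact permutation test allows is 0.1, and P values are therefore those of the model. SE below is the standard error of a log2 fold change.

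The intervals limited how large a change could have gone unseen. All 54 genes had a 95% interval within 2-fold in all 4 pairwise comparisons, and 37 had one within 1.5-fold in all 4. Among all genes tested, the interval was within 2-fold for 79.6% (anti-PD-1 in nonobese mice), 79.1% (anti-PD-1 in obese mice), 78.3% (obesity under isotype) and 78.1% (obesity under anti-PD-1). In the same order, 47, 48, 41 and 47 of the 54 genes had an interval within 1.5-fold, beside 60.9%, 58.8%, 53.1% and 58.4% of all genes. The largest fold of any member was 1.41, for Ccne2. The spread between tumors of a group was also below that of most genes, with a median biological coefficient of variation of 0.126 for the 54 genes and 0.151 for all genes tested. The genes with the smallest spread were the spindle midzone protein Prc1 (0.0916), the kinase Aurka (0.0935) and Mcm5 (0.0941), and those with the largest were Mki67 (0.217), the kinetochore motor Cenpe (0.216) and the phosphatase Cdc25c (0.194).

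**Figure D3:**
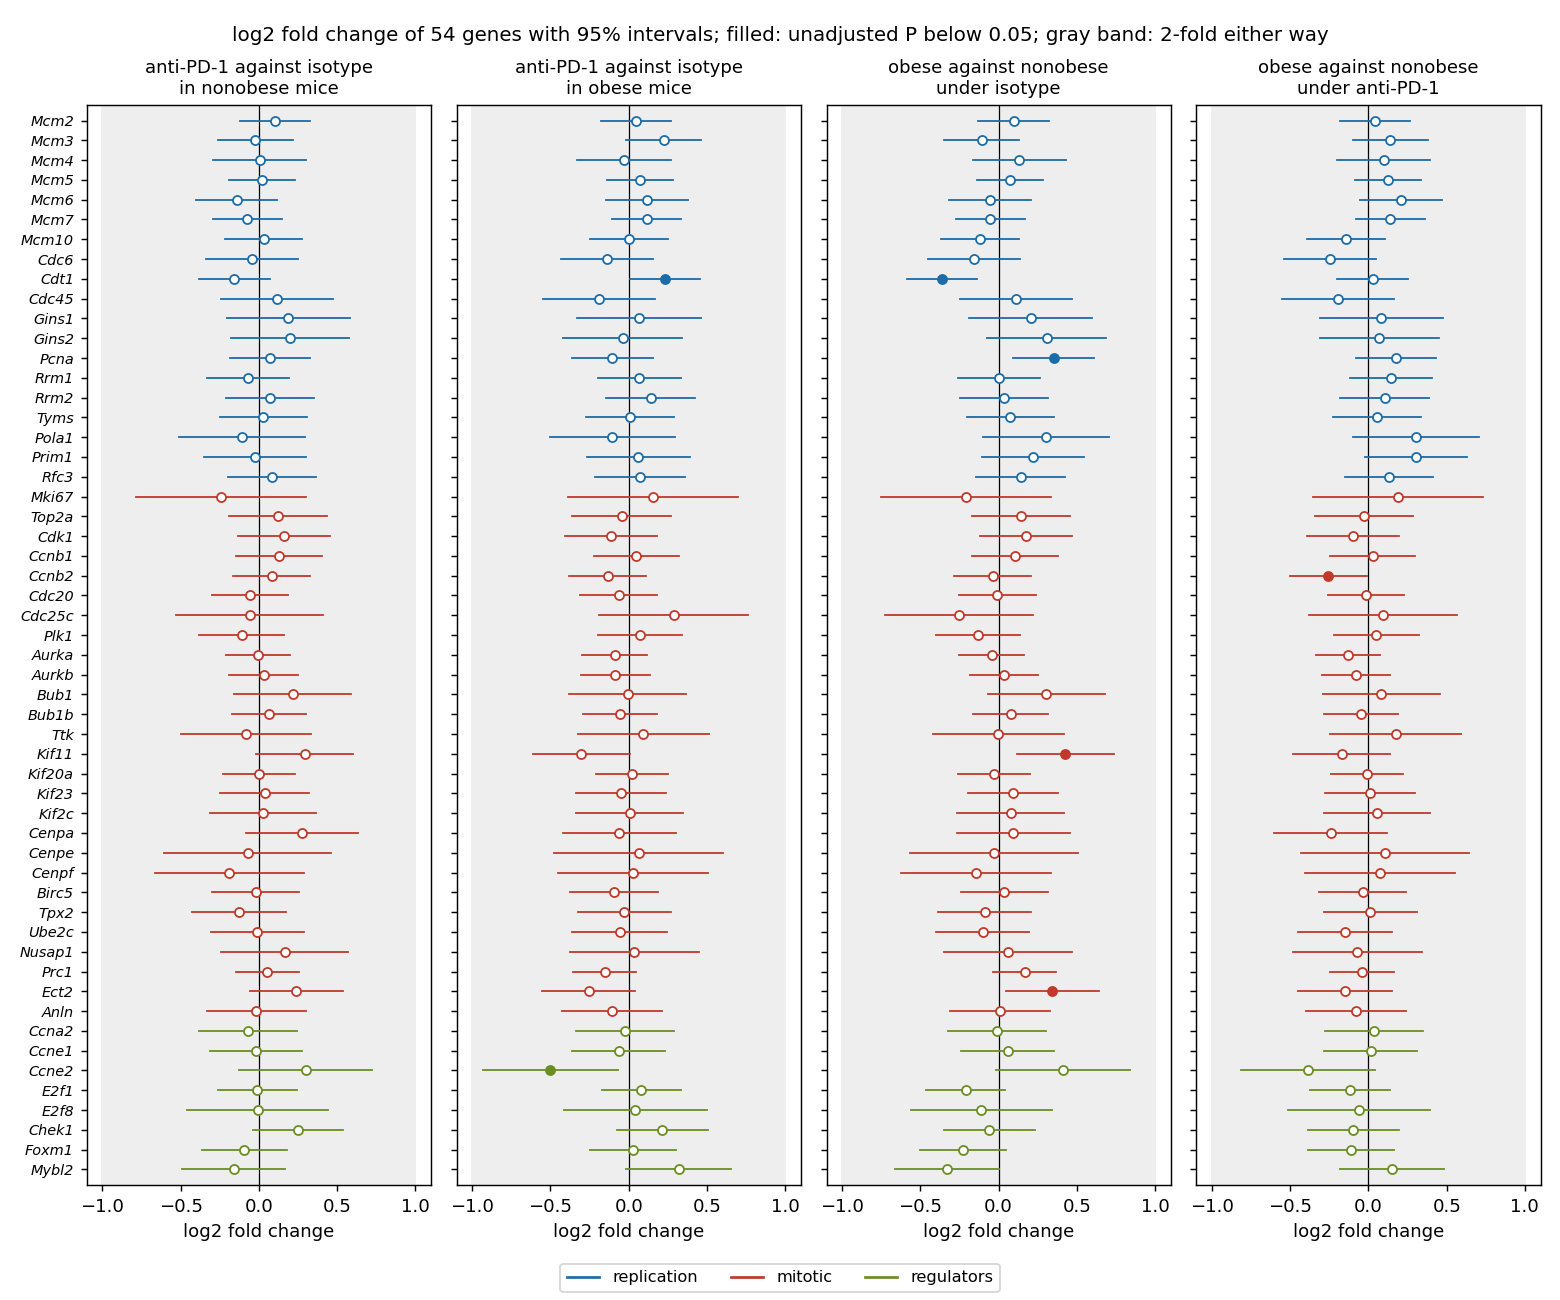
log2 fold change with 95% interval of each of the 54 genes in the 4 pairwise comparisons, colored by class, filled where the unadjusted P from edgeR was below 0.05, with a gray band from 2-fold lower to 2-fold higher. All intervals lie inside the band and 6 genes have a filled point in at least 1 panel.

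In nonobese mice, the comparison of anti-PD-1 with isotype asks what treatment did in hosts on the control diet. The 19 replication genes had a median log2 fold change of 0.02, the 27 mitotic genes 0.03 and the 8 regulators -0.01, beside 0.02 for all genes tested. None of the 54 genes had an unadjusted P below 0.05 from edgeR, beside 5.23% of all genes. Without nonobese isotype tumor 1 there were 3 (7.93% of all genes), and without nonobese anti-PD-1 tumor 1 there were 2 (8.73%). With all tumors, the smallest P belonged to Kif11, the motor that pushes spindle poles apart, at 73.2, 66.2 and 62.8 CPM with isotype and 69.8, 80.6 and 97.6 CPM with anti-PD-1. Its groups overlapped, with a log2 fold change of 0.29 (SE 0.14, edgeR FDR 0.929). In 3 of the 54 genes all anti-PD-1 tumors lay above all isotype tumors, as they did in 5.81% of all genes. They were Cdk1, Ccne2 and Chek1, the checkpoint kinase that guards stalled replication forks. Cdk1 was at 139, 134 and 128 CPM with isotype and 140.2, 140.3 and 168 CPM with anti-PD-1, a log2 fold change of 0.16 (SE 0.14, edgeR FDR 0.929). Mki67 was at 564, 495 and 520.1 CPM with isotype and at 477, 498 and 360.2 CPM with anti-PD-1, and the interval of its log2 fold change ran from -0.78 to 0.30.

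In obese mice, the same comparison of antibodies gave medians of 0.06 for replication genes, -0.05 for mitotic genes and 0.04 for regulators, beside -0.01 for all genes tested. Of the 54 genes, 2 had an unadjusted P below 0.05 from edgeR, beside 7.57% of all genes. Ccne2, a partner of Cdk2 at entry into S phase, was lower with anti-PD-1. It stood at 9.84, 12.1 and 7.4 CPM with isotype and at 5.78, 7.13 and 7.71 CPM with anti-PD-1. The 2 groups overlapped, and the log2 fold change was -0.50 (SE 0.20, edgeR FDR 0.579). The origin licensing factor Cdt1 was higher with anti-PD-1, at 74.4, 78.4 and 78.3 CPM with isotype against 96.0, 88.3 and 87.2 CPM. Its groups did not overlap and its log2 fold change was 0.23 (SE 0.11, edgeR FDR 0.649). Groups were also apart, with an unadjusted P above 0.05, for Chek1 and Mybl2 (higher) and for Cdc45 and Prc1 (lower), where 5.45% of all genes were higher and 7% lower without overlap. Mybl2, a subunit of the complex that activates mitotic genes, was at 29.2, 25.1 and 32.0 CPM with isotype and at 35, 35.5 and 37.4 CPM with anti-PD-1, a log2 fold change of 0.32 (edgeR FDR 0.672). When a trend with the GC content of exons was removed from each tumor, as described further on, neither Ccne2 (-0.43) nor Cdt1 (0.13) kept an unadjusted P below 0.05, and Kif11 (-0.28, edgeR FDR 0.551) had one. With a GC and length trend removed, Ccnb2 (-0.25), Chek1 (0.27) and Kif11 (-0.27) had one. Over all 23 alternatives, Cdt1 lost such a P in 10 and Ccne2 in 7. Counts and medians also depended on single tumors. The median of the mitotic genes was 0.13 without obese isotype tumor 3, and that of the replication genes was -0.02 without obese isotype tumor 1, so both signs turned. Ccne2 had a log2 fold change of -0.31 without obese isotype tumor 2. Without obese isotype tumor 3, 11 of the 54 genes had an unadjusted P below 0.05 (5 replication genes, 4 mitotic genes and 1 regulator higher, 1 regulator lower), beside 10.8% of all genes. There were 0 without obese isotype tumor 2 (5.73% of all genes), obese anti-PD-1 tumor 1 (8.63%) or obese anti-PD-1 tumor 2 (5.1%).

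Under isotype, the comparison of obese with nonobese mice asks what the diet did without checkpoint blockade. Medians of the log2 fold changes were 0.08 for replication genes, 0.04 for mitotic genes and -0.09 for regulators, beside 0.01 for all genes tested. An unadjusted P below 0.05 from edgeR was reached by 4 of the 54 genes, beside 13.3% of all genes. Cdt1 had the smallest P, at 84.9, 112 and 99.9 CPM in nonobese and 74.4, 78.4 and 78.3 CPM in obese mice (99.0 ± 13.7 against 77.0 ± 2.28, SD, n = 3 each). All obese tumors lay below all nonobese tumors, 1 of 3 members without overlap (19.4% of all genes), with a log2 fold change of -0.36 (SE 0.10, edgeR FDR 0.236). Kif11 was higher in obese mice, at 73.2, 66.2 and 62.8 CPM against 75.0, 94.1 and 103 CPM. The groups did not overlap, and the log2 fold change was 0.43 (SE 0.14, edgeR FDR 0.280). Pcna, the sliding clamp of the polymerases, stood at 157, 172.975 and 158 CPM in nonobese and at 173.096, 242 and 208 CPM in obese mice, so its groups were separated by a margin far smaller than their spread. Its log2 fold change was 0.35 (SE 0.12, edgeR FDR 0.283). Ect2, an exchange factor needed for cytokinesis, was at 72.6, 58.3 and 55.0 CPM against 64.5, 78.3 and 93.4 CPM, with overlap and a log2 fold change of 0.34 (SE 0.14, edgeR FDR 0.328).

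Among the regulators, the factors E2f1 (-0.21), Foxm1 (-0.23) and Mybl2 (-0.33) had negative log2 fold changes in obese mice under isotype, each with overlapping groups and an unadjusted P above 0.05 from edgeR. With DESeq2, Mybl2 (-0.35, FDR 0.311) had an unadjusted P below 0.05. Cyclin E2 had a positive one (0.41, edgeR FDR 0.393). The same obese tumors enter the treatment comparison in obese mice, where Cdt1, Mybl2, Kif11, Ect2 and Ccne2 have the opposite sign, and these 2 sets of values are not independent. The counts under isotype again depended on single tumors. Without obese isotype tumor 3, 12 of the 54 genes had an unadjusted P below 0.05, of which 3 were higher and 9 lower in obese mice (14.4% of all genes). Without obese isotype tumor 1, there were 9, of which 7 were higher and 2 lower (16.5% of all genes), and without nonobese isotype tumor 1 there were 7 (13.9% of all genes). The median of the mitotic genes was -0.06 without obese isotype tumor 3 and 0.13 without obese isotype tumor 1, so its sign depended on which tumors were included. That of the replication genes was -0.03 without obese isotype tumor 3. Without the same tumor Ect2 had a log2 fold change of 0.19, and without obese isotype tumor 2 Pcna had one of 0.22. Over all 23 alternatives, an unadjusted P below 0.05 was lost by Ect2 in 6, by Cdt1 in 2 and by Kif11 and Pcna in 1 each.

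In the comparison of obese with nonobese mice under anti-PD-1, the medians of the replication and mitotic genes lay further apart than in the other pairwise comparisons, although no replication gene passed an unadjusted P of 0.05. The median log2 fold change was 0.10 for replication genes, with 16 of 19 positive, -0.03 for mitotic genes, with 11 of 27 positive, and -0.08 for regulators, beside -0.01 for all genes tested. Of all genes tested, 6146 of 13095 were positive. Only Ccnb2, cyclin B2, had an unadjusted P below 0.05 among the 54 genes, beside 10.3% of all genes tested. It was at 89.9, 83.8 and 87.7 CPM in nonobese and 69.5, 73.8 and 75.5 CPM in obese mice, without overlap, and its log2 fold change was -0.26 (SE 0.12, edgeR FDR 0.465). Its unadjusted P was above 0.05 in 11 of 23 alternative settings, among them upper-quartile scaling (log2 fold change -0.24), a minimum of 10 counts in every tumor (-0.23), the replicate block (-0.26) and the omission of any 1 obese or nonobese anti-PD-1 tumor (-0.29 to -0.22). With a GC and length trend removed the log2 fold change was -0.45 (SE 0.11, edgeR FDR 0.0873), and Aurka (-0.27), Ccne2 (-0.44) and Cdc6 (-0.29) then also had an unadjusted P below 0.05. An FDR below 0.05 was reached by 50 of 13095 genes (0.382%) and by none of the 54. At so small a share, the absence of members says little about them. The 50 became 0 with only the tumors compared, 4 without nonobese anti-PD-1 tumor 1 and 214 without obese anti-PD-1 tumor 1. In 6 of 19 replication genes all obese tumors lay above all nonobese tumors, and in 0 of 27 mitotic genes, where 6.54% of all genes did. The reverse order was found in 3 of the 54 genes, Cdc6, Ccnb2 and Ccne2, where 7.06% of all genes had it. The 6 genes were Mcm3, Mcm6, Mcm7, Rrm1, Pola1 and Prim1. Mcm6 was at 330.4, 349 and 375 CPM in nonobese and 384, 409.6 and 423 CPM in obese mice, a log2 fold change of 0.21 (edgeR FDR 0.614). The primase subunit Prim1 was at 33.4, 34.6 and 43.6 CPM against 45.9, 47.3 and 44.6 CPM, a log2 fold change of 0.30 (edgeR FDR 0.529). For Pola1 and Rrm1 the groups only just failed to touch, at 46.236 against 46.249 CPM and at 421.9 against 422.3 CPM. The licensing factor Cdc6 was at 51.2, 52.2 and 62.4 CPM in nonobese and 44.3, 44.7 and 50.6 CPM in obese mice (log2 fold change -0.25, SE 0.14, edgeR FDR 0.587). These genes vary together between tumors, as described further on, so their number does not count independent observations.

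The difference between the treatment responses asks whether anti-PD-1 acted otherwise in obese than in nonobese mice. As obese minus nonobese, its median was -0.01 for replication genes, -0.08 for mitotic genes and 0.05 for regulators on the log2 scale, beside -0.04 for all genes tested. An unadjusted P below 0.05 from edgeR was reached by 5 of the 54 genes, beside 12.9% of all genes. The log2 differences were negative for Kif11 (-0.60, SE 0.20), Ccne2 (-0.80, SE 0.28) and Ect2 (-0.49, SE 0.20). They were positive for Cdt1 (0.39, SE 0.15) and Mybl2 (0.48, SE 0.22), and the lowest FDR of the 5 was 0.247. After removal of a GC trend, Kif11 (-0.53), Ect2 (-0.40) and Ccne2 (-0.65) kept such a P, while Cdt1 (0.19) and Mybl2 (0.28) did not. Over all 22 alternatives, such a P was lost by Mybl2 in 11, by Ect2 in 6, by Cdt1 in 3, by Ccne2 in 1 and by Kif11 in 0. With a GC and length trend removed, Kif11 (-0.53), Ect2 (-0.39) and Ccnb2 (-0.42) had such a P and Ccne2 (-0.61) did not. Each of the 5 genes had a log2 fold change of 1 sign in nonobese and of the other sign in obese mice. Without obese isotype tumor 3, 10 genes passed the same P, beside 14.7% of all genes, of which 8 were positive. The medians were then 0.12 for replication and 0.02 for mitotic genes, so both signs turned, and without obese isotype tumor 1 they were -0.06 and -0.16.

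Averaged over treatments, 4 genes differed between obese and nonobese mice at an unadjusted P below 0.05, all of them replication genes, beside 10.4% of all genes tested. Pcna was higher in obese mice by 0.26 on the log2 scale (SE 0.084, edgeR FDR 0.290), Prim1 by 0.26 (SE 0.11) and Pola1 by 0.30 (SE 0.13). Cdt1 had a log2 difference of -0.17 (SE 0.074). These calls depended on the setting: Cdt1 lost its unadjusted P below 0.05 in 11 of 22 alternatives, Prim1 in 9, Pola1 in 7 and Pcna in 1, mostly on leaving out 1 tumor. With a GC trend removed, Pcna (0.21) alone of the 4 kept such a P and Cdc6 (-0.21) was added, while Cdt1 was at -0.07. With a GC and length trend removed, Pola1 (0.24) alone kept it, Pcna was at 0.15, and Cdc6 (-0.20), Ccnb2 (-0.25) and Chek1 (-0.18) were added. Pola1 was at 0.14 without obese isotype tumor 3. At an FDR below 0.05, 24 of all genes and none of the 54 passed. Averaged over diets, Chek1 alone had an unadjusted P below 0.05 for treatment (log2 fold change 0.23, SE 0.095, edgeR FDR 1.00), beside 1.44% of all genes. It was at 18.9, 19.8 and 18.6 CPM in nonobese isotype, 20.2, 21.8 and 26.2 in nonobese anti-PD-1, 16.2, 19.2 and 19.7 in obese isotype and 23.8, 20.2 and 19.9 in obese anti-PD-1 tumors, so that all treated tumors lay above all isotype tumors. The margin was small, at 19.89 against 19.78 CPM, and the share of all genes in this order was not counted. The unadjusted P of Chek1 was above 0.05 in 4 of 22 alternatives, each of which left out 1 tumor.

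The ratio of replication to mitotic genes was compared directly within each tumor. The ratio of the 2 geometric means was 1.01, 1.18 and 1.24 in nonobese isotype tumors 1 to 3 and 1.04, 1.09 and 1.24 in nonobese anti-PD-1 tumors. It was 1.26, 1.16 and 1.08 in obese isotype and 1.27, 1.17 and 1.2 in obese anti-PD-1 tumors. All 4 groups overlapped. On the log2 scale the replication genes exceeded the mitotic genes by 0.19 ± 0.15 and 0.17 ± 0.12 in nonobese mice with isotype and anti-PD-1 and by 0.22 ± 0.11 and 0.28 ± 0.060 in obese mice (SD, n = 3 each), with a pooled SD within groups of 0.12. Between the 2 classes, the median fold changes differed by -0.01 and 0.11 for anti-PD-1 in nonobese and obese mice and by 0.04 and 0.13 for obesity under isotype and anti-PD-1. No test over the members was made, and these differences of medians depended on single tumors. Without obese isotype tumor 3 the value for anti-PD-1 in obese mice was 0.00, without obese isotype tumor 1 that for obesity under isotype was -0.01, and without obese anti-PD-1 tumor 1 that for obesity under anti-PD-1 was 0.06. For anti-PD-1 in nonobese mice, leaving out 1 tumor gave -0.07 to 0.07, so the sign depended on the tumors included.

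For mitotic and replication genes, the SD of the class mean was largest within the obese isotype group, and for regulators within the nonobese anti-PD-1 group. Among the 27 mitotic genes, 15 had their lowest level of all 12 tumors in obese isotype tumor 1 and 14 their highest in obese isotype tumor 3. Mki67 was at 297, 372 and 699.8 CPM in the 3 obese isotype tumors, so that this group held both its lowest and its highest value. Cenpe showed the same order, at 45.3, 64.4 and 117 CPM, and so did Cenpf, a large kinetochore protein, at 58.1, 70.4 and 124 CPM. In nonobese isotype tumors Mki67 was between 495 and 564 CPM, and in obese anti-PD-1 tumors at 407, 572 and 545 CPM. Topoisomerase Top2a, which untangles the copied DNA, was at 390.6, 442 and 576 CPM in obese isotype tumors. Not all mitotic genes followed: Cdk1 was highest in obese isotype tumor 2 (127, 189.8 and 136 CPM) and the centromeric histone Cenpa was lowest of its group in tumor 3 (40.0, 53.9 and 37.2 CPM).

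**Figure D4:**
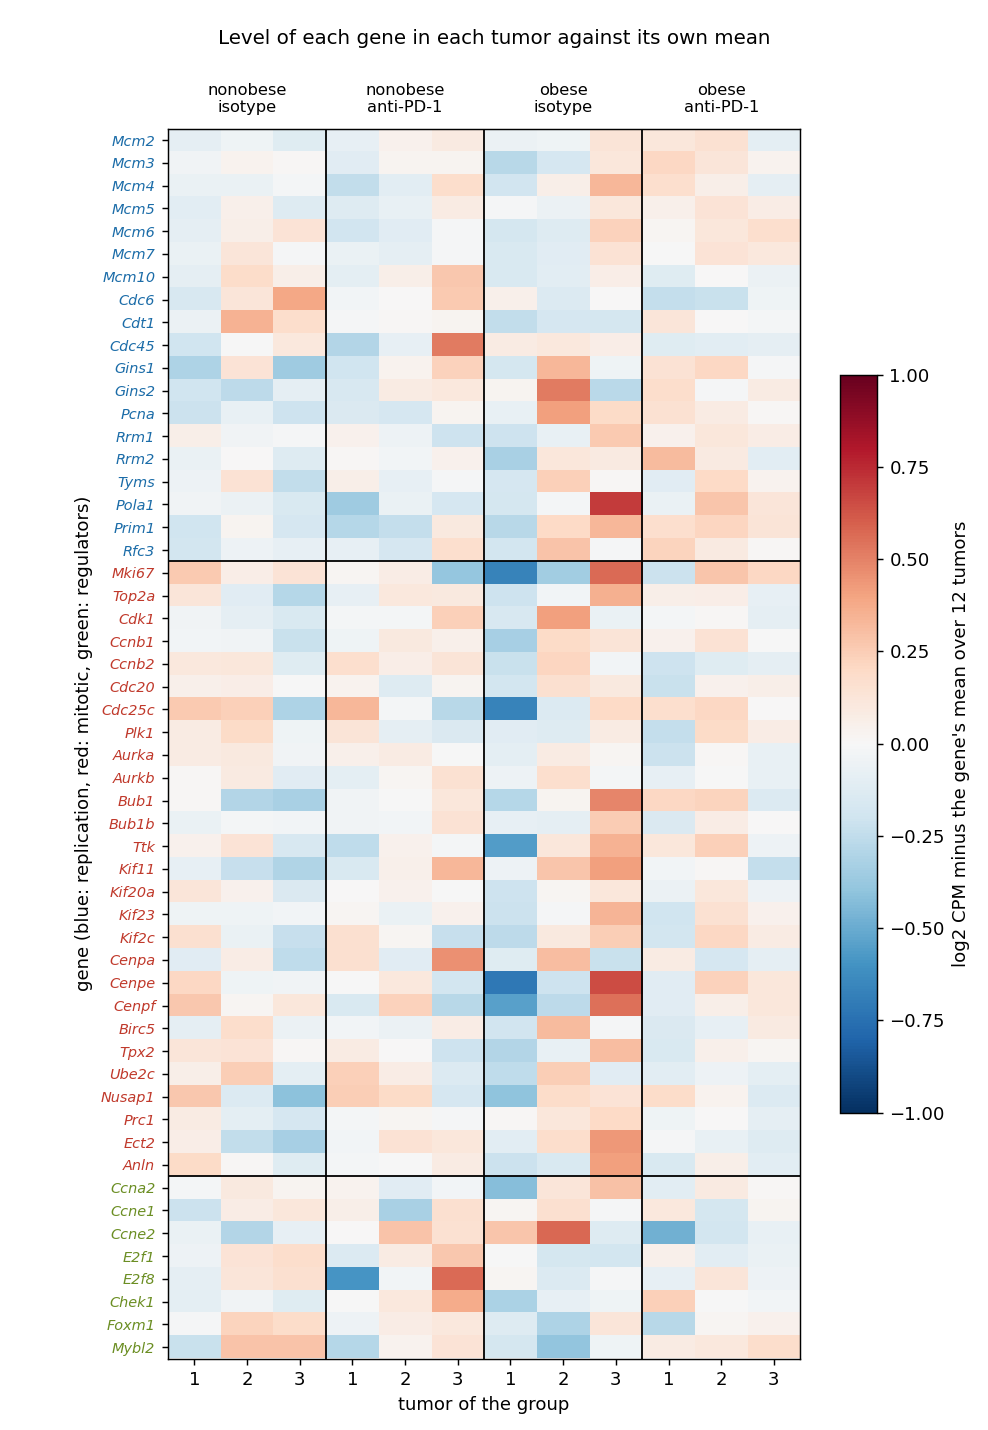
Deviation of each gene in each tumor from its own mean over the 12 tumors (log2 CPM, color), with genes grouped by class and tumors by group. Obese isotype tumor 1 is low and tumor 3 high for most mitotic genes, with Mki67 at 297 and 699.8 CPM in these 2 tumors.

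Genes of a class varied together between tumors of the same group. After subtracting group means, the median Pearson correlation over the 12 tumors was 0.54 for 351 pairs of mitotic genes, 0.40 for 171 pairs of replication genes and 0.28 for 513 pairs with 1 gene of each class. Across all genes tested, the median correlation with the mean of the mitotic genes was -0.0039. These correlations are descriptions, since the genes of a tumor share its library and its normalization. The obese isotype group weighs most in them, with an SD of the mitotic mean of 0.25 against 0.11 in nonobese isotype tumors, the next largest. The correlations were not taken in each group alone. The genes that followed the rest of their class most closely were Prim1 (0.97) and Mcm4 (0.83) among replication genes and Kif20a (0.94), Ttk (0.89) and Ccnb1 (0.88) among mitotic genes. Gins2 (-0.04), Cenpa (-0.06) and Ccne2 (-0.22) did not follow their class. Mki67, with 0.75, was not among the closest.

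Part of the diet comparison moved with base composition. Over the 12338 genes tested that have a GC value (94.2%), the Spearman correlation between exon GC content and the log2 fold change of obese against nonobese mice under isotype was -0.37, and over the 54 genes it was -0.48. The tenth of genes with the lowest GC content (below 41.5%) had a median log2 fold change of 0.18 and the tenth with the highest (above 57.9%) one of -0.15. Among the members named above for positive values, the GC content was 42.2% for Kif11, 40.2% for Ect2, 36.3% for Ccne2 and 45.3% for Pcna, and among those named for negative values it was 57.8% for Cdt1, 56.3% for Mybl2 and 58.3% for E2f1. Other members went against the trend. Gins2 had a positive log2 fold change (0.31) at 53.4% GC, and Cdc25c (-0.25) and Mki67 (-0.21) had negative ones at 44.1% and 46.6% GC. After a GC trend was removed from each tumor, Kif11 (log2 fold change 0.31, edgeR FDR 0.442) and Pcna (0.30, edgeR FDR 0.457) kept an unadjusted P below 0.05. Cdt1 (-0.16) and Ect2 (0.20) did not, and Gins2 (0.44, edgeR FDR 0.471) was added. The other comparisons moved with GC content to different degrees. For obesity under anti-PD-1 the correlation was -0.04 over all genes and -0.12 over the 54 genes, and for obesity averaged over treatments it was -0.31 and -0.48. For anti-PD-1 it was -0.22 and -0.31 in nonobese mice, 0.20 and 0.15 in obese mice and 0.00 and 0.00 averaged over diets. For the difference between the responses it was 0.25 and 0.26. The part of base composition in the fold changes was not tested beyond this correction.

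**Figure D5:**
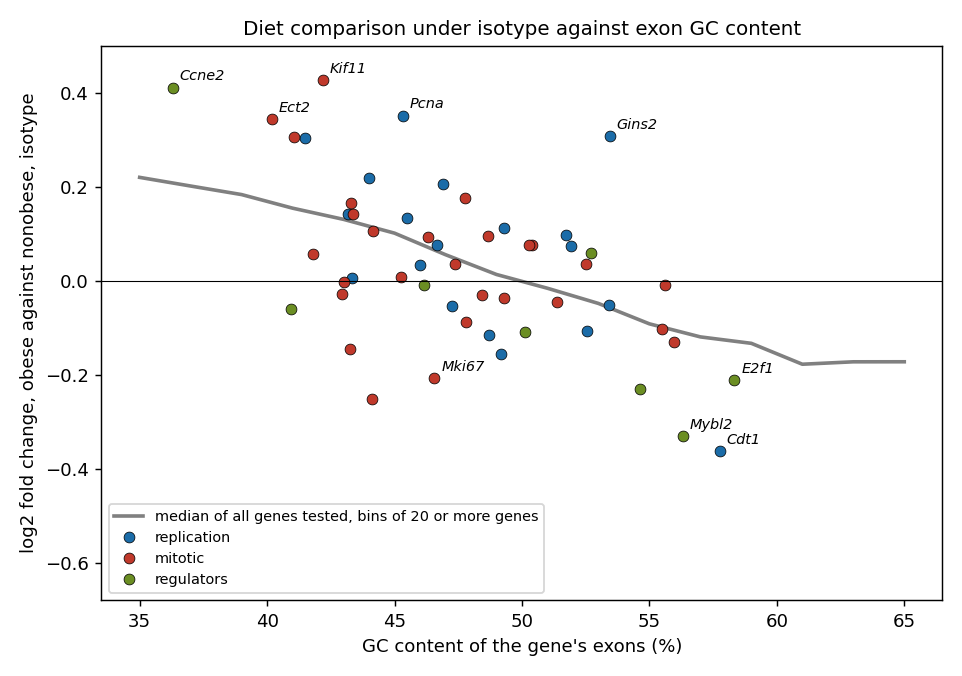
log2 fold change of obese against nonobese mice under isotype (vertical axis) against the GC content of each gene's exons (percent), for the 54 genes by class, with the median of all genes tested in bins of GC content as a gray line. Cdt1 at 57.8% GC lies below 0 and Kif11 at 42.2% above 0, on the same sides as the line.

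The tumors at the extremes of the mitotic genes also differed in this trend. In obese isotype tumor 3, the deviation of the mitotic genes correlated with exon length at 0.69 and with GC content at -0.68 over the 27 genes, and over all genes the same correlations were 0.39 and -0.44. Mki67, Cenpe and Cenpf, with 10061, 8620 and 15433 bases of exon, are among the longest members. After removal of a GC and length trend, the mean of the mitotic genes was still lowest in obese isotype tumor 1 (6.21 log2 CPM) and highest in obese isotype tumor 3 (6.62), with 6.53 in tumor 2. Before the correction, the same 2 tumors stood at 6.19 and 6.67.

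Other genes of the cell cycle were not called by edgeR either. They were 37 further replication genes, 39 further mitotic genes and 29 tested genes of a G1 and checkpoint list. In no comparison had any of them an FDR below 0.05 from edgeR or a fold change above 2 with P below 0.05 from edgeR. Medians under anti-PD-1 in obese against nonobese mice were 0.05 for the further replication genes, -0.03 for the further mitotic genes and -0.14 for the G1 and checkpoint list, beside -0.01 for all genes tested. For obesity under isotype, 13.3% of all genes had an unadjusted P below 0.05 from edgeR, and 7.11% were higher with one. Of the 3 further lists, 3 of 37, 5 of 39 and 4 of 29 genes had such a P, all of them higher. Among these the replication protein A subunit Rpa3 (log2 fold change 0.63, edgeR FDR 0.250) and the polymerase epsilon subunit Pole2 (0.63, edgeR FDR 0.296) had the largest log2 fold changes. The pocket protein gene Rbl2 (0.39, edgeR FDR 0.205) had the smallest P. These 3 genes were chosen after their values were seen. Rpa3 was at 12.7, 13.8 and 15.6 CPM in nonobese isotype and 17.8, 27.9 and 19.7 CPM in obese isotype tumors, without overlap. The G1 and checkpoint list holds D-type cyclins, their kinases, inhibitors, E2F factors and pocket proteins, the Lin9 and Lin54 subunits of the complex with Mybl2, the Cdk1 inhibitory kinases Wee1 and Pkmyt1, and Trp53 with Mdm2, Ccng1, Btg2 and Gadd45a. The D-type cyclins, which couple growth signals to Cdk4 and Cdk6, were expressed in all tumors. Ccnd1 was at 243.6 to 364 CPM over the 12 tumors and differed by -0.26 on the log2 scale between obese and nonobese mice averaged over treatments (SE 0.092, edgeR FDR 0.328). Cdk4 was at 345 to 503 CPM and differed by 0.20 (SE 0.089, edgeR FDR 0.454), while Cdk6 stood at 0.98 to 4.21 CPM. The inhibitor p21 (Cdkn1a) was at 110.1 to 297 CPM. The inhibitor gene Cdkn2a had 12 counts over all 12 tumors, with at most 3 in any tumor, and was not tested, like Cdkn1c with 85 counts in all.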

How the data were processed

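RNA of 12 tumors was sequenced as stranded poly(A) libraries. According to the submitters' processing notes, the authors used FastQC 0.11.5, STAR 2.7.0f, HTSeq 0.9.1 and edgeR 3.28.1 with mm10, while for the counting step neither the strand nor the annotation is given in the sources used here, so genes with an overlapping neighbour or a near-identical copy are uncertain. The deposited values are raw counts, whole numbers per gene symbol and tumor, without normalization. Reads carried no molecular identifiers. Total counts were 14022929 to 33871843, and no member fell below 82 counts in a tumor. The standard errors and intervals hold counting error and the spread between tumors together.

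Here, filterByExpr of edgeR 4.0.16 (R 4.3.3) kept 13095 genes. TMM scaling and a quasi-likelihood F-test (legacy=TRUE, as in the version of the authors) with 4 group means left 8 residual degrees of freedom, and the common dispersion was 0.0352. FDR values are Benjamini-Hochberg values over all genes tested. The thresholds of the study, more than 2-fold with P below 0.05, were counted beside the FDR and beside P alone. Values per tumor are CPM scaled by TMM, and log2 CPM used a prior count of 2. Exon lengths, GC contents and coordinates came from GENCODE vM21 (GRCm38), promoter windows from RefSeq (GRCm38.p6). Where several windows were given for a gene, the most upstream one was used. The last 20 bases of the windows were found in the first part of a GENCODE transcript of the gene as given in 39 of 44 genes. As the reverse complement they were found in 0. This checks the strand and not the start site. Spearman correlations with GC content and length are across genes, which are not replicates.

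The 54 members, their classes and the wider lists were chosen with earlier results of these data known. Genes were named when among the 5 smallest P values in each direction of a comparison, when extreme in spread or level, or as fixed representatives of a role, and others are marked. Alternatives were DESeq2 1.42.0, RLE and upper-quartile scaling, other filters on low counts, a robust prior, glmQLFit in its current form, fits of the compared tumors alone, a replicate block, leaving out each tumor and, added after seeing the data, GC and length corrections. The code was tested on simulated counts.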

Additional observations from a re-analysis of the deposited data

How the results depend on the processing

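Besides the settings reported, 23 alternatives were tried, of which the GC and the GC and length corrections were chosen after seeing the data. None of the 17 single-gene values changed sign under any alternative run for it (22 or 23), and the largest shift of the median of all genes by a scaling was 0.0232 on the log2 scale. The difference of replication and mitotic medians depended on single tumors: leaving out 1 tumor gave -0.00091 to 0.13 for anti-PD-1 in obese mice and -0.01 to 0.08 for obesity under isotype. It gave -0.07 to 0.07 for anti-PD-1 in nonobese mice. The settings that kept all tumors gave 0.06 to 0.11 for anti-PD-1 in obese mice and -0.04 to -0.01 in nonobese mice. The number of members past an FDR of 0.05 over the 7 contrasts was 1 under DESeq2 and 0 to 0 when a tumor was left out, and none passed a fold change of 2 with P below 0.05 in any setting. The number with an unadjusted P below 0.05 moved more, from small counts. For anti-PD-1 in nonobese mice it was 1 instead of 0 with every gene of at least 1 count tested, with the GC correction and with the GC and length correction (5.08%, 5.81% and 6.39% of all genes). For anti-PD-1 in obese mice it was 4 instead of 2 with at least 10 counts required in every tumor (6.83% of all genes) and 1, a different gene, with the GC correction (8.63%). For obesity under anti-PD-1 it was 0 instead of 1 with upper-quartile scaling (9.79% of all genes) or at least 10 counts (9.07%), 3 with only the tumors compared (8.36%), 2 with the GC correction (12.3%) and 4 with the GC and length correction (12.7%). For the difference between responses it was 3 instead of 5 with either correction, not the same 3 genes in both (14.4% and 15.3% of all genes), and for obesity averaged over treatments 2 instead of 4 with the GC correction (8.61% of all genes). Leaving out 1 tumor gave 0 to 3 members for anti-PD-1 in nonobese mice (3 without nonobese isotype tumor 1, 2 without nonobese anti-PD-1 tumor 1, 1 without nonobese anti-PD-1 tumor 2 or 3 or obese isotype tumor 1). It gave 0 to 11 for anti-PD-1 in obese mice (11 without obese isotype tumor 3, 5 and 1 without nonobese anti-PD-1 tumors 1 and 2, 0 without obese isotype tumor 2 or obese anti-PD-1 tumor 1 or 2) and 3 to 12 for obesity under isotype (12, 9 and 7 without obese isotype tumors 3 and 1 and nonobese isotype tumor 1). It gave 0 to 3 for obesity under anti-PD-1 (3 and 2 without obese isotype tumors 3 and 1, 0 without nonobese isotype tumor 1 or 2 or any obese anti-PD-1 tumor) and 2 to 10 for the difference between responses (10 without obese isotype tumor 3, 2 without nonobese isotype tumor 2, 3 without nonobese isotype tumor 3, nonobese anti-PD-1 tumor 2 or obese anti-PD-1 tumor 3). Averaged over treatments it was 1 to 5 (1 without obese anti-PD-1 tumor 2, 2 without nonobese isotype tumor 2 or 3 or nonobese anti-PD-1 tumor 2), and averaged over diets 0 to 4 (4 without obese isotype tumor 3, 0 without nonobese isotype, obese isotype or obese anti-PD-1 tumor 1). Over the same omissions, the share of all genes with such a P was 2.39% to 8.73%, 5.01% to 10.8%, 6.99% to 16.5%, 7.16% to 13.5%, 8.76% to 16.9%, 7.78% to 13.8% and 0.817% to 3.43% in the order given. The groups share replicate numbers, but the tumors are from different mice, and the numbers were not taken as a pairing. Deviations of same-numbered tumors from their group means correlated at 0.133 on average over 18 pairs (lowest -0.264, 10 above 0.1). Those of other numbers correlated at -0.0623 over 36 pairs. With group means subtracted these averages nearly offset each other, so they cannot decide whether the numbers mark shared conditions. With the replicate number as a block, 5 instead of 4 members passed P below 0.05 for obesity under isotype and the number was unchanged in the other 6 contrasts. An unchanged number need not mean the same genes: for obesity under anti-PD-1, Ccnb2 no longer passed and another member did. The cause of these shifts was not tested. The lowest count of any member in a tumor was 82, and how far depth limits the intervals was not tested.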
